A study of Mus musculus with 2 samples.

Results

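The mouse mitochondrial genome carries 37 annotated genes, and 5 stretches of nuclear chromosome 1 repeat some of them almost base for base. These 42 genes were followed by total RNA-seq in mouse erythroblasts, precursors of red blood cells that still have a nucleus. Every gene with a symbol beginning mt- was taken (2 rRNAs, 13 mRNAs and 22 tRNAs), together with the copies Gm29216, Gm28661, Gm28437, Gm10925 and Gm10222, which makes 42 of 43346 gene rows. The rule uses names and no measured level, but the copies were listed with earlier results of these data known.

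The study holds 1 group of 2 libraries and no second condition, so no test was run and values are described. Per the labels, the cells were primary erythroblasts of the C57BL/6J strain, taken from male adults at 5 to 6 weeks of age. Library input was 1 ng of RNA, and spike-in RNA was added. The labels call them biological replicates 1 and 2 but do not say whether separate animals were used, so the spread between them may be partly technical.

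Mitochondrial DNA is a small circle whose strands, called heavy and light, are each copied into long transcripts. In mammals these are cut apart mainly at the tRNAs that lie between the larger genes, and the mRNAs receive short poly(A) tails. The rRNAs form the mitochondrial ribosome, and the mRNAs encode subunits of respiratory complexes I, III and IV and of the ATP synthase, complex V. Red cell precursors need mitochondria for heme synthesis and lose them late in maturation. Fragments of mitochondrial DNA copied into nuclear chromosomes are known as nuclear mitochondrial segments.

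Counts are expected counts, in which a read that matches several genes is shared among them. Levels are in TPM, a transcript abundance that divides counts by an effective length (the positions at which a fragment can start) and scales each library to a fixed total. Total depth was 80806663 expected counts in replicate 1 and 117032607 in replicate 2. The 42 genes took 87.1% and 88.6% of them, against 5.44% and 5.82% for all nuclear protein-coding genes. All 12 erythroblast markers examined, among them the globin genes and Klf1, were detected (TPM of at least 1 in both libraries, which held for 7.99% of all gene rows), with a summed level of 21250 and 22979 TPM. All 10 neutrophil lineage markers were also detected, at a sum of 2027 and 2335 TPM. So were 5 of 6 monocyte and macrophage markers, at a sum of 143 and 161 TPM, while Cd3d and Cd8a of T cells were listed at 0 in both libraries. How much of the mitochondrial RNA came from other cell types was not tested. In such bulk samples, a different number of cells of a type and a different amount of RNA per cell cannot be told apart.

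The sequences that separate each mRNA from its nuclear copy are few, and they bear on every value of the 5 mRNAs concerned. Gm28661 (chr1:24614885-24615565, minus strand, mm10) matched mt-Co2 without a mismatch over its 681 bases. Gm28437 (chr1:24613189-24613971) matched mt-Co3 over 783 bases, Gm10925 (chr1:24613974-24614651) matched mt-Atp6 over 678 bases and Gm10222 (chr1:24612407-24612700) matched mt-Nd4l over 294 bases, each on the minus strand and each without a mismatch. What these mitochondrial genes hold beyond their copies is 3 bases, the stop codon, in mt-Co2, mt-Atp6 and mt-Nd4l, and 1 base in mt-Co3. The ends of the 4 mitochondrial transcripts are given in the reference of GENCODE M21, 5′ to 3′, with capitals for the bases that lie beyond the copy.
mt-Co2, bases 661 to 684: aactgatctgcttcaataattTAA
mt-Co3, bases 761 to 784: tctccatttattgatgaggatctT
mt-Atp6, bases 658 to 681: ctatatctacatgataatacaTAA
mt-Nd4l, bases 274 to 297: aatctcaacctactacaatgcTAA

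Gm29216 (chr1:24615706-24616197, minus strand) is different in kind, because it copies only the last 492 of the 1545 bases of mt-Co1. It matched bases 1054 to 1545 at 98.8% identity. All 6 differences lay in the first 13 bases of the copy and were followed by 479 identical bases. Numbered from the first base of mt-Co1, with its base given first, they were T1056A, C1057T, A1059G, A1060G, C1062A and A1066T. The facing starts are shown with the differing bases in capitals.
mt-Co1, bases 1054 to 1093: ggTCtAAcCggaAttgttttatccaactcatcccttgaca
Gm29216, bases 1 to 40: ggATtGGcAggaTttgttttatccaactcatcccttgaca

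At the mean fragment length of each library, 136 and 152 bases after rounding, nearly all possible fragments of the 4 full-length pairs occur in both genes. Of the fragment positions in mt-Co2, 99.5% and 99.4% were also in Gm28661. The share was 99.8% in both libraries for mt-Co3, 99.5% and 99.4% for mt-Atp6, and 98.1% and 97.9% for mt-Nd4l. No fragment position of these 4 copies was without a match in its mitochondrial gene. In mt-Co1 the shared part was 24.4% and 23.5%, and Gm29216 held 13 positions that mt-Co1 lacks.

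Mitochondrial rRNA dominated the quantified gene rows. The large rRNA, mt-Rnr2 (chrM:1094-2675), stood at 417259 TPM in replicate 1 and 428669 in replicate 2. The small rRNA, mt-Rnr1 (chrM:70-1024), stood at 365270 and 356540 TPM. The large and the small rRNA were the first and second gene rows by TPM in both libraries. Both belong to the same heavy-strand transcript and lie on either side of the tRNA gene mt-Tv, with which they share exact borders. The large rRNA exceeded the small by 1.14 and 1.20 times, a log2 ratio of 0.23 ± 0.05 (SD, n = 2). Together they held 78.4 ± 0.19% of TPM, and the 13 mRNAs held 8.16 ± 0.11%. These are shares of the quantified rows and not of all RNA in the cell. How far cytoplasmic rRNA was removed or counted was not tested. Summed rRNA exceeded summed mRNA 9.68-fold in replicate 1 and 9.53-fold in replicate 2.

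**Figure D1:**
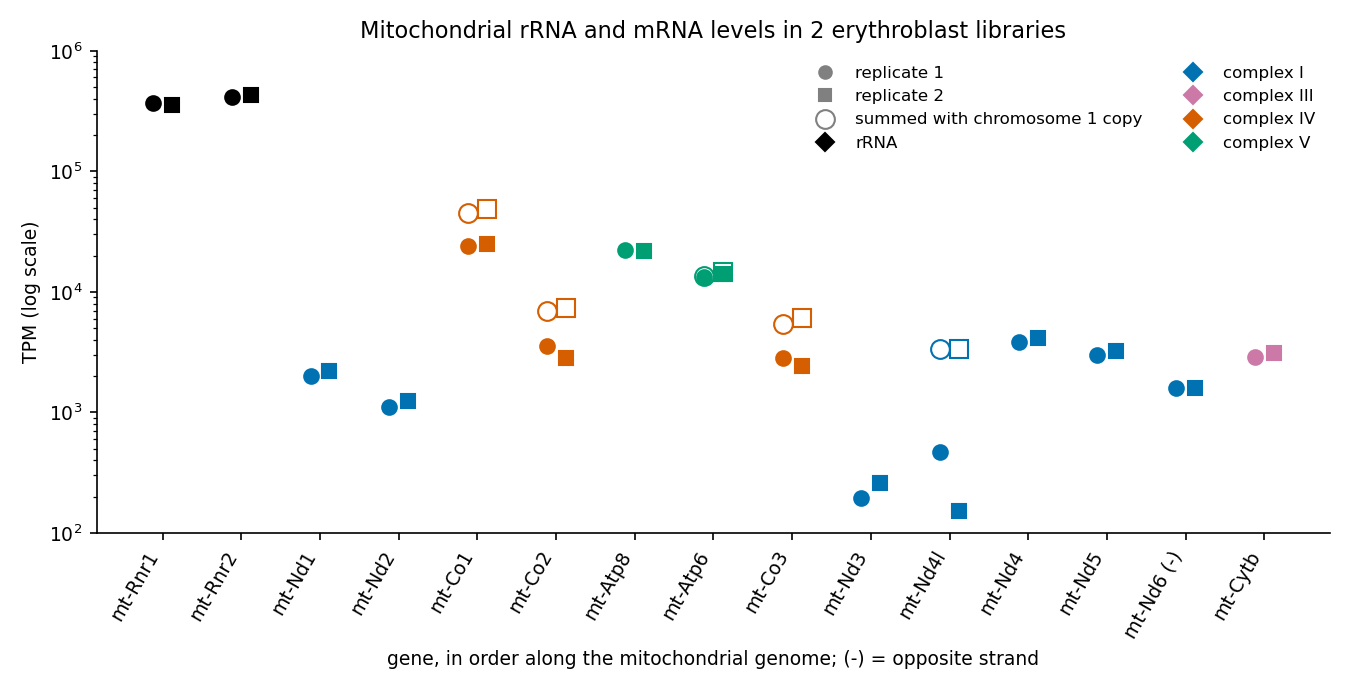
TPM of the mitochondrial rRNAs and mRNAs on a log axis, in order along the genome, for replicate 1 (circles) and replicate 2 (squares). Filled symbols are the gene alone and open symbols the gene summed with its chromosome 1 copy; mt-Rnr1 and mt-Rnr2 lie highest, at 356540 TPM or more, and mt-Nd3 and mt-Nd4l alone lie lowest, between 153 and 466 TPM.

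Of the rRNA's downstream neighbours, mt-Nd1 lies after only 1 tRNA gene, and the drop in level across it was the steepest on the strand. mt-Nd1 (chrM:2751-3707), a complex I subunit that takes part in binding ubiquinone, stood at 2012 and 2202 TPM, so mt-Rnr2 was 207-fold and 195-fold higher. mt-Nd1 and mt-Nd2 were followed by mt-Co1, which was 11.9-fold and 11.4-fold above mt-Nd1. Level did not run in one direction along the genome. Over the 12 mRNAs of the heavy strand, the rank correlation of TPM with position was -0.10 in replicate 1 and 0 in replicate 2. Its mean was -0.05 ± 0.07 (SD of the 2 libraries), where the 12 points share libraries and differ in length. Without the 3 mRNAs shorter than 400 bases the mean was 0.29, so the value depends on those genes.

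Complex IV, cytochrome oxidase, had the highest mRNA of the genome. mt-Co1 (chrM:5328-6872), its catalytic subunit, stood at 23858 and 25172 TPM. mt-Co2 (chrM:7013-7696), which receives electrons from cytochrome c, was listed at 3566 and 2833 TPM, and mt-Co3 (chrM:8607-9390), a core subunit, at 2834 and 2449 TPM. Listed alone, mt-Co1 was thus 6.69-fold and 8.88-fold above mt-Co2, although both lie on the same strand. With the TPM of each copy added to its gene, the gap was 6.52-fold and 6.62-fold. With counts added instead, over the effective length of each mitochondrial gene, it was 4.25-fold and 4.23-fold.

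Complex V followed. Its subunits mt-Atp8 (chrM:7766-7969) and mt-Atp6 (chrM:7927-8607) are read in overlapping frames and are known to share an mRNA in mammals. mt-Atp8 stood at 22258 and 21913 TPM and mt-Atp6 at 13266 and 14053 TPM. These levels do not overlap between the genes. Their overlap spans 43 bases, from 7927 to 7969 of the mitochondrial genome, shown in capitals at the end of mt-Atp8, where the start codon of mt-Atp6 opens the run.
mt-Atp8, bases 150 to 204: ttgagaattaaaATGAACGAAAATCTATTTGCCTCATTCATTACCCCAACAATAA

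The order of these genes turned on how length was counted. mt-Atp8 has 204 bases, and its effective length was 73.9 in replicate 1 and 60.9 in replicate 2. In TPM it was 1.68-fold and 1.56-fold above mt-Atp6. In expected counts per annotated kb it was at 0.757 and 0.598 times mt-Atp6, below it in both libraries. mt-Co1 led under both scalings. Across the 13 mRNAs, the gap between highest and lowest was 123-fold and 164-fold in TPM, and 184-fold and 299-fold in counts per annotated kb. Without the 3 mRNAs shorter than 400 bases it was 21.6-fold and 20.2-fold in TPM.

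**Figure D2:**
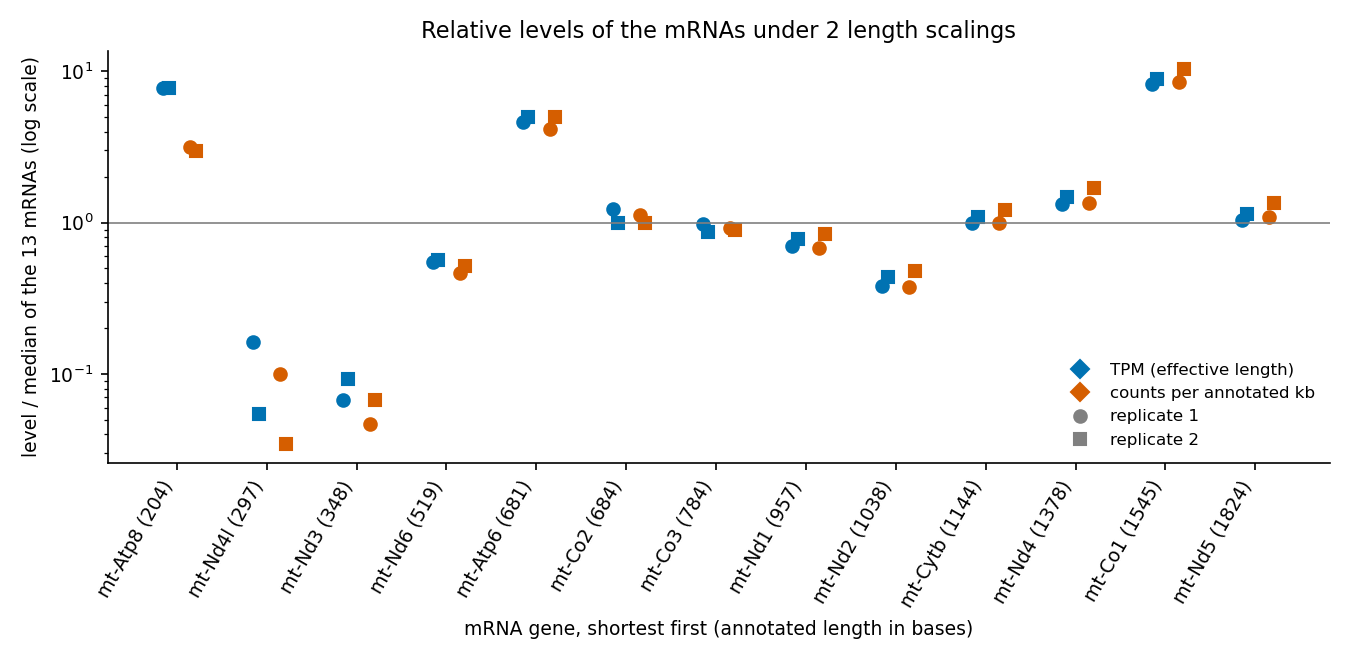
Level of each mitochondrial mRNA gene alone relative to the median of the 13, on a log axis, shortest gene first, in TPM (blue) and in counts per annotated kb (orange), for replicate 1 (circles) and replicate 2 (squares). mt-Atp8, the shortest, falls from above mt-Atp6 in TPM to below it in counts per kb, while genes longer than mt-Co3 move little.

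Complex I, the NADH dehydrogenase, takes 7 of the mRNAs, and with all 7 included they spread the most in TPM. That rank rested on mt-Nd3 and mt-Nd4l. The other members ran from 1103 to 3828 TPM in replicate 1 and from 1247 to 4178 in replicate 2. In complex IV the range was wider than that, with mt-Co1 8.42-fold and 10.3-fold above mt-Co3. mt-Nd4 (chrM:10167-11544) stood at 3828 and 4178 TPM and mt-Nd5 (chrM:11742-13565) at 2978 and 3234 TPM. Both encode subunits of the proton-pumping membrane arm, as does mt-Nd2 (chrM:3914-4951), which was lower at 1103 and 1247 TPM. mt-Nd3 (chrM:9459-9806), at the junction of the membrane arm with the peripheral arm, stood at 193 and 262 TPM on 2971 and 5478 counts. mt-Nd4l (chrM:9877-10173), a small membrane subunit, was listed at 466 and 153 TPM on 5464 and 2395 counts. mt-Nd4l and mt-Nd3 did not keep an order between the libraries.

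mt-Nd4l and mt-Nd4 are known to share an mRNA in mammals and overlap by 7 bases, capitals in the line that follows. Listed alone, mt-Nd4 exceeded mt-Nd4l 8.22-fold in replicate 1 and 27.2-fold in replicate 2. With the copy Gm10222 added to mt-Nd4l, the excess was 1.13-fold and 1.23-fold in TPM, and 1.87-fold and 2.24-fold in counts per annotated kb, since mt-Nd4l has only 297 bases.
mt-Nd4l, bases 274 to 297: aatctcaacctactacaATGCTAA

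Complex III has a single mitochondrial subunit, mt-Cytb (chrM:14145-15288), cytochrome b. It stood at 2882 and 3099 TPM. Its range over the libraries overlapped that of mt-Nd5, which was higher within each library. By complex, the median mRNA was at 1596 ± 2.44 TPM for I, 2990 ± 154 for III, 3200 ± 518 for IV and 17872 ± 156 for V (SD, n = 2). The complex IV median was 2.24-fold and 1.77-fold above that of complex I. As a share of the TPM of the 13 mRNAs, complex V held 43.9% and 43.7%, IV held 37.4% and 37.0%, I held 15.1% and 15.6%, and III held 3.56% and 3.76%. In counts per annotated kb the order of the first pair turned, with complex IV at 46.0% and 46.4% and complex V at 31.9% and 30.1%.

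mt-Nd6 (chrM:13552-14070), of the complex I membrane arm, is the only mRNA annotated on the minus strand. It stood at 1594 and 1598 TPM on 44099 and 62352 counts, which was 0.544 and 0.539 times the median of the 12 other mRNAs. In log2 this is -0.89 ± 0.01 (SD, n = 2). It was above mt-Nd2 in both libraries and was itself the median gene of complex I. Its base composition mirrors its strand: 28.1% of its bases were G and 5.97% C, where the 12 others ranged from 5.88% to 16.1% G and held at least 22.1% C. Its end pairs with the end of mt-Nd5 on the opposite strand over 14 bases, in capitals. The sources used here do not state whether counting used strand. Without it, heavy-strand RNA crossing this locus and mt-Nd6 RNA cannot be told apart.
mt-Nd5, bases 1801 to 1824: ttatactcaaTTAATCTCGAGTAA
mt-Nd6, bases 496 to 519: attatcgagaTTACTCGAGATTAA

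The ends of the mRNAs show how compact the genome is. Of the 36 borders between neighbouring genes, 9 overlap, 12 are exact and 15 have a gap of at most 32 bases. Of the 13 mRNAs, 10 are annotated with a whole stop codon and 3 stop 1 base after their last codon, at a T that polyadenylation is known to complete to a stop codon. These 3 are shown with that base in capitals.
mt-Co3, bases 770 to 784: attgatgaggatctT
mt-Nd4, bases 1364 to 1378: caggcctgacaataT
mt-Cytb, bases 1130 to 1144: taaaattatatccaT

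The chromosome 1 copies were listed at levels like those of genuine mitochondrial mRNAs. They took 1.04% and 1.21% of counts and 3.02% and 3.52% of TPM. Gm29216 stood at 21006 and 23300 TPM on 540237 and 842584 counts. Gm28661 was listed at 3317 and 4489 TPM, Gm28437 at 2533 and 3659, Gm10222 at 2921 and 3233, and Gm10925 at 389 and 501. All 5 were higher in replicate 2 in TPM, but in TMM-scaled counts Gm10222 was at a log2 ratio of -0.09 and Gm29216 at -0.01.

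How much of each pair the copy held differed widely although 4 of the 5 copies are equally hard to tell from their gene. Gm10925 was given 2.85% and 3.44% of the TPM of its pair with mt-Atp6. Gm10222 was given 86.2% and 95.5% of its pair with mt-Nd4l. Gm28661 was given 48.2% and 61.3% of its pair with mt-Co2, and Gm28437 was given 47.2% and 59.9% of its pair with mt-Co3. Gm29216 was given 46.8% and 48.1% of the TPM of its pair with mt-Co1, but 18.2% and 18.5% of the counts, since its 492 bases are set against 1545.

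The deposited uncertainty of this sharing was uneven. The posterior standard deviation of the count was 23.7% and 28.3% of the posterior mean count for mt-Co2, 58.7% and 54.0% for mt-Co3, 57.2% and 64.2% for mt-Nd4l, and 7.65% and 5.14% for mt-Atp6. For the copies it was 33.6% and 28.1% for Gm28661, 45.0% and 39.7% for Gm28437, 12.9% and 4.42% for Gm10222, and 61.0% and 50.7% for Gm10925. For mt-Co3 the deposited TPM interval, whose level is not stated, ran from 859 to 4338 in replicate 1 and from 1018 to 4798 in replicate 2. That of Gm28437 ran from 959 to 4445 and from 1236 to 5024, so the gene and its copy overlapped almost fully. The TPM of Gm10925 in replicate 1 was 389, and its interval ran from 446 to 2944. The intervals belong to the posterior estimate, so a TPM can lie outside its own: of the 20 rRNAs, mRNAs and copies, 7 lay within it in replicate 1 and 8 in replicate 2. By contrast, the standard deviation was 0.0178% and 0.0146% for mt-Co1 and 0.0796% and 0.0646% for Gm29216. Yet 96.4% and 96.2% of the fragment positions of Gm29216 also occur in mt-Co1. Whether the shared fragments of this pair were assigned to the right gene was not tested. The standard deviation describes how reads were divided within a library and leaves out how libraries differ.

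**Figure D3:**
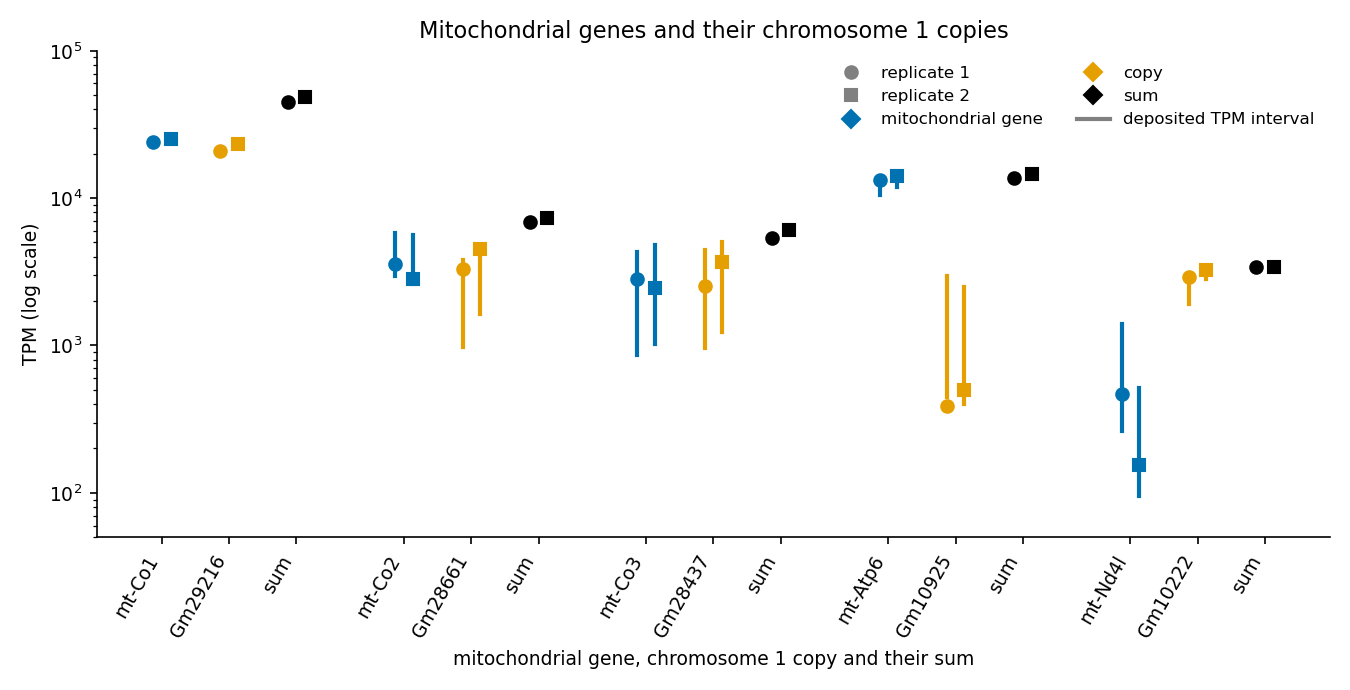
TPM on a log axis for 5 mitochondrial genes (blue), their chromosome 1 copies (orange) and the sums (black) in replicate 1 (circles) and replicate 2 (squares), with bars for the deposited TPM interval of each gene. The intervals of mt-Co3 and Gm28437 cover nearly the same range, those of mt-Co1 and Gm29216 are narrower than the symbols, and each sum differs little between the libraries.

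Adding each mRNA to its copy gave values that depend little on that division for the 4 full-length pairs. mt-Co2 with Gm28661 came to 6883 and 7323 TPM, mt-Co3 with Gm28437 to 5367 and 6109, mt-Atp6 with Gm10925 to 13655 and 14554, and mt-Nd4l with Gm10222 to 3387 in both libraries. The sums were 1.93 and 2.58 times mt-Co2 alone, 1.89 and 2.49 times mt-Co3 alone, 1.03 and 1.04 times mt-Atp6 alone, and 7.27 and 22.1 times mt-Nd4l alone. mt-Co1 with Gm29216 came to 44864 and 48472 TPM. Because this copy is short, adding TPM weights its reads more heavily than reads of the whole gene. Adding the counts instead and dividing by the effective length of mt-Co1 gave 29181 and 30872 TPM. For the other 4 pairs that choice moved the sum little, for example to 6865 and 7297 TPM for mt-Co2.

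With the sums, the order of the 13 mRNAs by mean TPM was mt-Co1, mt-Atp8, mt-Atp6, mt-Co2, mt-Co3, mt-Nd4, mt-Nd4l, mt-Nd5, mt-Cytb, mt-Nd1, mt-Nd6, mt-Nd2 and mt-Nd3. Of the 12 neighbours in that order, 1 pair, mt-Nd5 and mt-Cytb, overlapped between the libraries. Within each library mt-Nd5 was above mt-Cytb, so this pair kept its order. In counts per annotated kb, mt-Atp6 came before mt-Atp8 and mt-Nd4l fell after mt-Nd1, and the overlapping pair was mt-Nd1 with mt-Nd4l. In TPM without the copies, mt-Nd4 came before mt-Co2, mt-Co3 fell after mt-Cytb and mt-Nd4l fell after mt-Nd2. In that order 3 neighbours overlapped: mt-Co2 with mt-Nd5, mt-Nd5 with mt-Cytb, and mt-Nd4l with mt-Nd3. Of these, mt-Nd5 and mt-Cytb kept their order in each library, and the others did not. mt-Nd3 was lowest in both libraries with the sums, and was lowest alone in replicate 1 only.

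The sums also changed the balance between complexes. The complex IV median went from 3200 ± 518 to 7103 ± 311 TPM, and was 3.42-fold and 3.33-fold above the complex I median, in log2 1.75 ± 0.03 against 0.99 ± 0.24 without copies (SD, n = 2). Complex IV then held 51.5% and 52.6% of the mRNA TPM and complex V 32.4% and 31.0%. Complex IV was thus above V in TPM with copies and below it without, while in counts per annotated kb it was above V either way. With counts added instead of TPM, complex IV held 43.5% and 44.3% and complex V 37.7% and 36.5%. mt-Nd6 stood at 0.442 and 0.422 times the median of the other mRNAs once copies were added.

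Beyond the 5 listed copies, 2 more mitochondrial copies stand in the same chromosome 1 cluster and held few counts. Gm28439 (chr1:24611535-24612410) matches the first 876 bases of mt-Nd4 without a mismatch, and held 87.9 and 136 counts, or 1.65 and 1.77 TPM. Gm28438 (chr1:24612775-24613119) matches mt-Nd3 with 1 mismatch, and held 0 and 64.9 counts. A copy of the whole of mt-Co1 on chromosome 2, Gm13340, matches at 97.6% identity and stood at 8.48 and 7.15 TPM. These 3 were chosen for mention after their values were seen. Gm28439 covers 63.6% of mt-Nd4, so unlike the full-length copies it leaves the gene 502 fragment positions of its own.

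None of the 22 tRNAs was detected. The tRNA genes, from mt-Ts2 of 59 bases to mt-Tl1 of 75 bases, each held 0 counts in both libraries. Each also had an effective length of 0, because it is shorter than the fragments of these libraries, whose labelled size range is 150 to 400 with no unit given. Among all gene rows of up to 75 bases, 888 in number with these tRNAs included, 0 held a count. The tRNA level was therefore not measurable here, and no upper limit is given. In the genome, 14 of the tRNAs lie on the plus strand and 8 on the minus strand. The shortest is shown because it illustrates how far below the fragment length these genes lie.
mt-Ts2, whole gene: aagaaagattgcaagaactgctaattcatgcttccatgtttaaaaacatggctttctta

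Between the libraries, the members with a mean of at least 100 counts (the 20 rRNAs, mRNAs and copies) were compared after TMM scaling, as log2 of replicate 2 over replicate 1. Of these, 1 was more than 1.5 times apart, mt-Nd4l, against 23.2% of the 5805 genes with that many counts. Depth goes with this. Among 205 other genes with at least as many counts as the shallowest of the 20, 1 was that far apart. The median of the 20 was -0.02 and that of all 5805 genes 0.01. Scaling to the library total in place of TMM raised both medians and turned the sign for the members, to 0.10 beside 0.12 for all genes.

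For mt-Co2 and mt-Co3 the gene and its copy differed between the libraries in opposite directions, while for mt-Nd4l the copy stayed near 0, at -0.09 under TMM and 0.02 under scaling to the library total. mt-Nd4l was 3.57-fold lower in replicate 2 (log2 -1.84), and its sum with Gm10222 was at -0.24. mt-Co2 was at -0.46 while Gm28661 was at 0.31, and their sum was at -0.04. mt-Co3 was at -0.33 while Gm28437 was at 0.41, and their sum was at 0.06. Under TMM mt-Atp6 was at -0.05 and Gm10925 at 0.23, also in opposite directions, with their sum at -0.04. Under scaling to the library total both were above 0, at 0.06 and 0.34. mt-Atp8, which has no listed copy, was at -0.39 in counts, while its TPM was 22258 and 21913. The mean fragment was 136 bases in replicate 1 and 152 in replicate 2, and its part in that difference was not tested. With each mRNA summed with its copy, 0 of 15 members were more than 1.5 times apart, and the lowest was mt-Atp8.

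**Figure D4:**
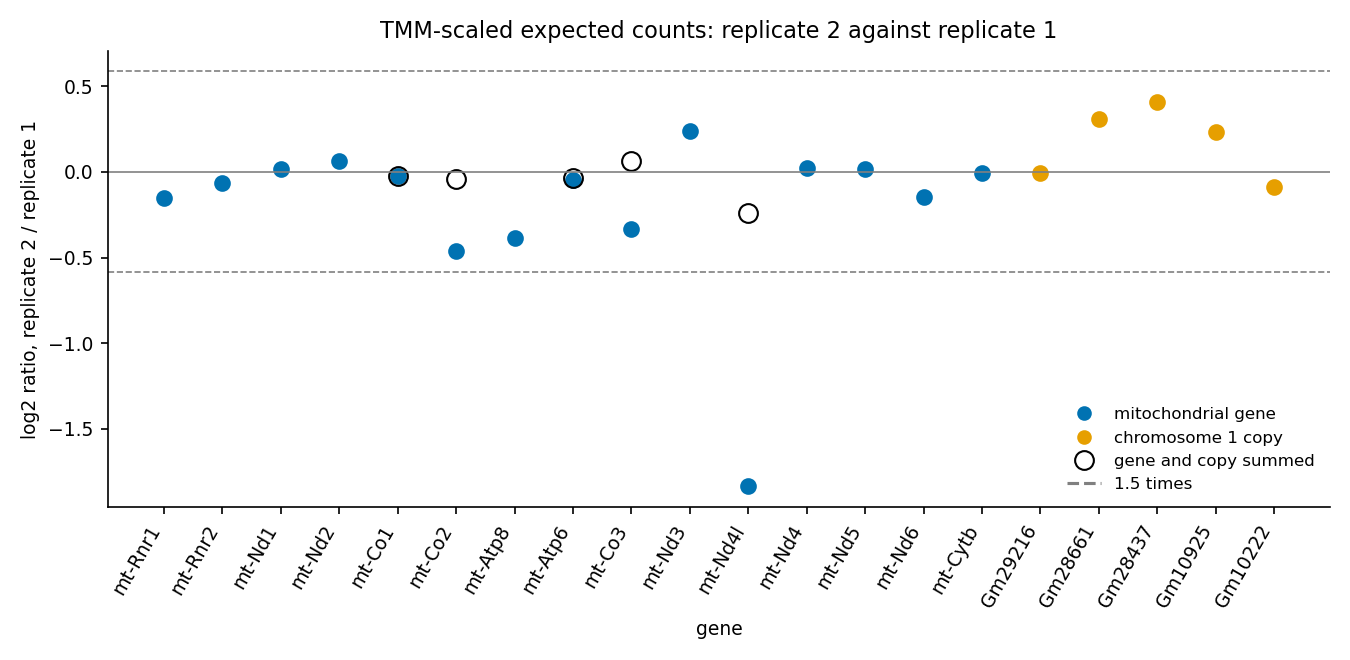
Log2 ratio of TMM-scaled expected counts, replicate 2 over replicate 1, for mitochondrial genes (blue), chromosome 1 copies (orange) and each gene summed with its copy (open circles), with dashed lines at 1.5 times in either direction. mt-Nd4l alone lies beyond the lines at -1.84, and its sum with Gm10222 lies at -0.24.

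Few of the nuclear genes that transcribe, cut, modify and translate mitochondrial RNA were detected, and the same held for nuclear protein-coding genes at large. Which way the list differed from them depended on the threshold. A smaller share of the list reached a TPM of 1, and a larger share held at least 10 counts. Its median was higher than that of a background in which most genes did not hold 10 counts in both libraries. Of 63 matched genes of a list of such genes, 6 reached a TPM of 1 in both libraries, and 50 held at least 10 counts in both. Their median level was 0.41 and 0.35 TPM, where all 21461 nuclear protein-coding genes had a median of 0.03 and 0.02 TPM, 3120 of them were detected and 9196 held at least 10 counts in both. Highest was Mrm1, which methylates the large rRNA, at 7.45 and 6.74 TPM. Lrpprc, which binds and stabilises mitochondrial mRNAs, stood at 1.79 and 3.13 TPM. The others detected were Rexo2, an exonuclease for short RNAs (2.26 and 2.44 TPM), Ssbp1, which binds single-stranded DNA (1.37 and 1.72), Pnpt1, an RNA-degrading enzyme (1.76 and 1.20), and Hsd17b10, a subunit of the enzyme that cuts the 5′ ends of tRNAs (1.53 and 1.08). Mterf3 and Grsf1, a regulator of transcription and an RNA-binding protein of RNA granules, were at 0.98 and 2.70 TPM and at 0.77 and 1.37 TPM. The mitochondrial RNA polymerase Polrmt held 11 and 25 counts and the transcription factor Tfam 98 and 84 counts, at a mean of 0.21 and 0.31 TPM; these 2 were chosen after their values were seen. The lowest 3 were Trmt61b, a tRNA and rRNA methyltransferase (0.04 TPM), Fastkd3 (0.03) and Mtif3, an initiation factor (0.03). Because TPM is shared with the 2 rRNAs, which hold 78.4% of it, nuclear levels are on a compressed scale. Of the TPM outside the rRNAs, the 13 mRNAs held 37.2% and 38.4%.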

How the data were processed

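Total RNA of 2 erythroblast libraries was quantified per gene. The members and gene lists were chosen with earlier results of these data known. Per the deposited read-me, the authors quantified from a transcriptome alignment on mm10 with GENCODE M4; aligner, quantifier and use of strand: not given in the sources used here. Expected counts, as deposited, share reads among matching genes. The deposited TPM is the main unit, and TPM of different genes is comparable per length only. The deposited FPKM was an alternative, as was the authors' posterior mean of TPM, treated as a score. The deposited interval bounds, also treated as a score, are of unstated level.

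Genes were matched by identifier to GENCODE M21 on the same build. All 42 members had the same length in both, and sequences are M21 transcripts. Copies were compared with mitochondrial genes without gaps (Python 3.11.15, Biopython 1.88). A copy's TPM was added to its gene's, and in an alternative added after seeing the data the counts were added. Counts per annotated kb were also scaled to equal library totals. Expected counts were rounded for edgeR 4.0.16, which gave TMM factors of 0.962 and 1.04 over 10012 genes (prior count 2); DESeq2 1.42.0 gave alternative size factors. The ratio step was also run on simulated counts. The genes scored there were shallower than most of the rRNAs, mRNAs and copies, and no reads were shared between genes. That run therefore does not bear on the division of reads within pairs. All members were named, with up to 8 of the highest and 3 of the lowest of the list of nuclear genes; Mtrfr was not matched and not analysed here. Detected means a TPM of at least 1 in both libraries. A count of 0 allows up to 3 counts, which for 1 kb is 0.0482 TPM in replicate 1 and 0.0333 in replicate 2, counting error only. Values are mean ± SD, n = 2.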

Additional observations from a re-analysis of the deposited data

How the results depend on the processing

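Of 124 recomputed values for 21 results, 80 stayed within the spread between the libraries (for counts of genes, within 1.5 times), 42 moved beyond it and 2 changed sign. The median log2 ratio of the libraries was judged by a fixed margin instead. Many of the 80 were fixed in advance, and some of the 42 only reflect a change of unit or denominator. Neither number measures stability. For results judged by the spread, a value from 1 library always lies within it. FPKM keeps every share, ratio and rank within a library, and lower count filters kept the same members. The 2 libraries limit every spread given, and no paired analysis was possible because there is only 1 group. The rank correlation with position turned to 0.29 without the mRNAs shorter than 400 bases; it was -0.12 with posterior means and -0.15 with copies added, as TPM or as counts. The median log2 ratio of the libraries over members turned to 0.10 under scaling to the library total.

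Posterior means gave a share of 77.5% for rRNA and 8.02% for mRNA, medians of 1577 for complex I, 3785 for IV and 17173 for V, a log2 ratio of IV to I of 1.26, -0.93 for mt-Nd6 against the other mRNAs, and 10.2% of its pair for Gm10925. Counts per annotated kb, scaled to equal totals, gave 80.6% for rRNA, 6.80% for mRNA, log2 ratios of 0.33 for mt-Rnr2 to mt-Rnr1, 3.57 for rRNA to mRNA, 7.87 for highest to lowest mRNA and -1.14 for mt-Nd6, medians of 1039 for I, 2351 for III, 2275 for IV and 8123 for V, and 41.4% for Gm29216. FPKM gave medians of 1434 for I, 2687 for III and 16055 for V.

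Adding each copy's TPM to its mRNA gave 11.4% for mRNA, log2 ratios of 2.78 for rRNA to mRNA, 7.70 for highest to lowest, 1.75 for IV to I and -1.21 for mt-Nd6, and medians of 2107 for I, 7103 for IV and 18095 for V. The alternatives added after seeing the data gave, with counts added, 3.01 for rRNA to mRNA, 1.75 for IV to I, -1.20 for mt-Nd6 and 0 members over 1.5 times apart. Without the short mRNAs, highest to lowest was 4.39 and IV to I 0.59. Outside the rRNAs, mRNA held 37.8% of TPM. The nuclear genes detected numbered 50 by counts, and 7 to 12 in single libraries. The causes of these changes were not tested, beyond what each alternative changes by construction.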
